A study of Mus musculus with 12 samples.

Results

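The clustered protocadherins are cell-surface adhesion proteins encoded by 58 mouse genes in 3 neighbouring arrays, called alpha, beta and gamma. The members were taken by gene symbol, without regard to their values: 14 alpha (Pcdha), 22 beta (Pcdhb) and 22 gamma (Pcdhg) genes of 56691 in the tables. All 58 were found, and 48 of them were among the 17335 genes with enough reads to be tested (5 alpha, 21 beta and 22 gamma genes). The 10 left out were Pcdha1, Pcdha2, Pcdha3, Pcdha6, Pcdha7, Pcdha8, Pcdha11, Pcdha12, Pcdhac1 and Pcdhb1.

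RNA was sequenced from the palatal shelves, the paired outgrowths that later fuse into the roof of the mouth, of mouse embryos at gestational day 12. There were 3 libraries in each of 4 groups, and each library held the shelves of 2 pooled embryos of one genotype, 6 embryos a group, per the labels' protocols. The knockout group came from conditional Dnmt1 knockout embryos (labelled DNMT1 KO) that were not treated, and the control group from untreated wild-type (WT) embryos. The AzadC group came from WT embryos exposed to 5-aza-2'-deoxycytidine, an inhibitor of DNA methyltransferases, and the vehicle group from WT embryos given its vehicle. The series' design text speaks of 3 pooled animals where the protocol speaks of 2 embryos. Neither the Cre driver and the deleted exons, nor how and when AzadC was given, nor whether counting used strand, is stated in the labels. Embryos of at least 3 litters were used for each genotype, and which libraries share a litter is not given.

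As background, each alpha or gamma gene has its own large first exon with its own promoter, which is spliced to short constant exons shared by the whole cluster, whereas each beta gene is a single exon. A cell uses a few of these promoters. The choice is known to involve DNA methylation of the promoters, the DNA-binding factor CTCF and the cohesin ring, and it has been studied mainly in neurons, where the proteins give cells a surface identity used in self-recognition. The C-type isoforms at the downstream end of the alpha and gamma clusters (Pcdhac1, Pcdhac2, Pcdhgc3, Pcdhgc4 and Pcdhgc5) are used more uniformly from cell to cell. Dnmt1 copies DNA methylation onto the new strand after replication, and Dnmt3b sets it on protocadherin promoters early in development.

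All 3 clusters lie on the plus strand of chromosome 18 (mm10, GENCODE M21 gene models). The alpha cluster runs from 36930184 to 37187661, the beta cluster from 37264938 to 37524479 and the gamma cluster from 37661793 to 37841873. The layout sets how well a member can be measured. Of the 50-base stretches of a member's full transcript, a median of 95.5% (88.0% to 100.0%) occurred in no other gene for the beta members, 54.9% (34.1% to 58.8%) for the gamma members and 39.3% (2.5% to 51.8%) for the alpha members. The counting program RSEM divides reads that fit several genes between them, which leaves values that are not whole numbers. Of the nonzero values, 86.2% were whole (within 0.005) in the beta cluster, 0.758% in the gamma cluster and 2.48% in the alpha cluster, against 79.2% over all genes. Beta values are therefore mostly direct read counts, while a gamma or alpha value includes an estimated part of the reads from shared constant exons. Exceptions in beta were Pcdhb12, with 41.7% of its values whole, and Pcdhb21 and Pcdhb22, with 25% each. The beta genes also had the lowest CpG density, with a median of 2.07% of the dinucleotides of the first exon, against 3.92% for gamma and 4.68% for alpha. In beta the first exon is the whole transcript, from 2588 bases (Pcdhb1) to 8695 (Pcdhb14). The densities are thus not taken over like stretches.

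Total counts per library ran from 12640536 to 33113790. The targeted gene Dnmt1 stood at 201, 180 and 191 CPM (read counts scaled to library size and composition) in the knockout libraries and at 286, 278 and 258 in the control libraries, a fall of 0.52 ± 0.07 (SE) on the log2 scale (edgeR adjusted p = 0.000369). Its level was 452, 451 and 448 CPM in the vehicle libraries and 408, 482 and 411 CPM in the AzadC libraries, so that vehicle exceeded control by 0.72 ± 0.07 (adjusted p = 0.000286). The value sums reads over the whole gene, including any exon the deletion leaves in place. The tissue label was met by the 12 palatal mesenchyme markers, all of which were tested, with Twist1 at a mean of 183 TPM and Prrx2 at 182 TPM over the 12 libraries. Markers of nerve, glia, macrophages, muscle, epithelium, vessels and blood were also present.

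The gamma cluster supplied most of the clustered protocadherin RNA in the palatal shelves. On the length-corrected TPM scale the authors deposited, gamma genes made up 87.2% of the summed level of all members in control, 86.2% in knockout, 91.2% in vehicle and 91.3% in AzadC. Beta genes made up 11.97%, 12.98%, 8.28% and 8.10% in the same order of groups, and alpha genes less than 1% in each group. These shares include Pcdhgc4, whose high value is uncertain for reasons given below. It alone made up 34.9%, 33.7%, 37.6% and 38.7% in that order. Without it the mean gamma sum in control was 176 TPM, against 40.3 TPM for beta. The summed gamma level was 644 ± 49.8 CPM in control (SD, n = 3 libraries in each group), 633 ± 18.02 in knockout, 632 ± 42.3 in vehicle and 619 ± 50.9 in AzadC, so that the 4 groups overlapped. The summed alpha level was 8.95 ± 2.15 CPM in control, 8.44 ± 1.27 in knockout, 5.79 ± 1.91 in vehicle and 5.86 ± 1.67 in AzadC. Of the 3 cluster sums only that of beta split the untreated libraries from the others.

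The beta genes together gave 80.2, 103 and 95.6 CPM in the control libraries and 103, 110 and 103 CPM in the knockout libraries. They gave 54.4, 66.6 and 68.1 CPM in the vehicle libraries and 63.0, 56.7 and 60.7 CPM in the AzadC libraries. All 6 untreated libraries, knockout or not, thus stood above all 6 libraries of the vehicle and AzadC groups. In CPM, the summed level of 14 neuronal markers followed the same split. It was 116 to 150 CPM in control, 121 to 146 in knockout, 95.5 to 103 in vehicle and 75.9 to 93.9 in AzadC. In TPM the beta split held, with 34.54 the lowest untreated value and 28.28 the highest of the other groups. The neuronal sums overlapped in TPM, at 59.42 in control library 2 and 61.04 in vehicle library 1. Of these markers only Snap25 was too low to be tested. Map2, a microtubule protein of dendrites, and Tubb3, a neuronal tubulin, had the highest levels of the list in TPM. The Map2 mean was 47.7 CPM in control, 51.45 in knockout, 39.3 in vehicle and 33.96 in AzadC. The Tubb3 mean did not follow the split, at 9.03 CPM in control, 18.2 in knockout, 10.02 in vehicle and 5.14 in AzadC. The part of the neuronal markers in the beta levels was not tested. In bulk tissue, fewer cells of a type and less RNA per cell cannot be told apart.

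**Figure D1:**
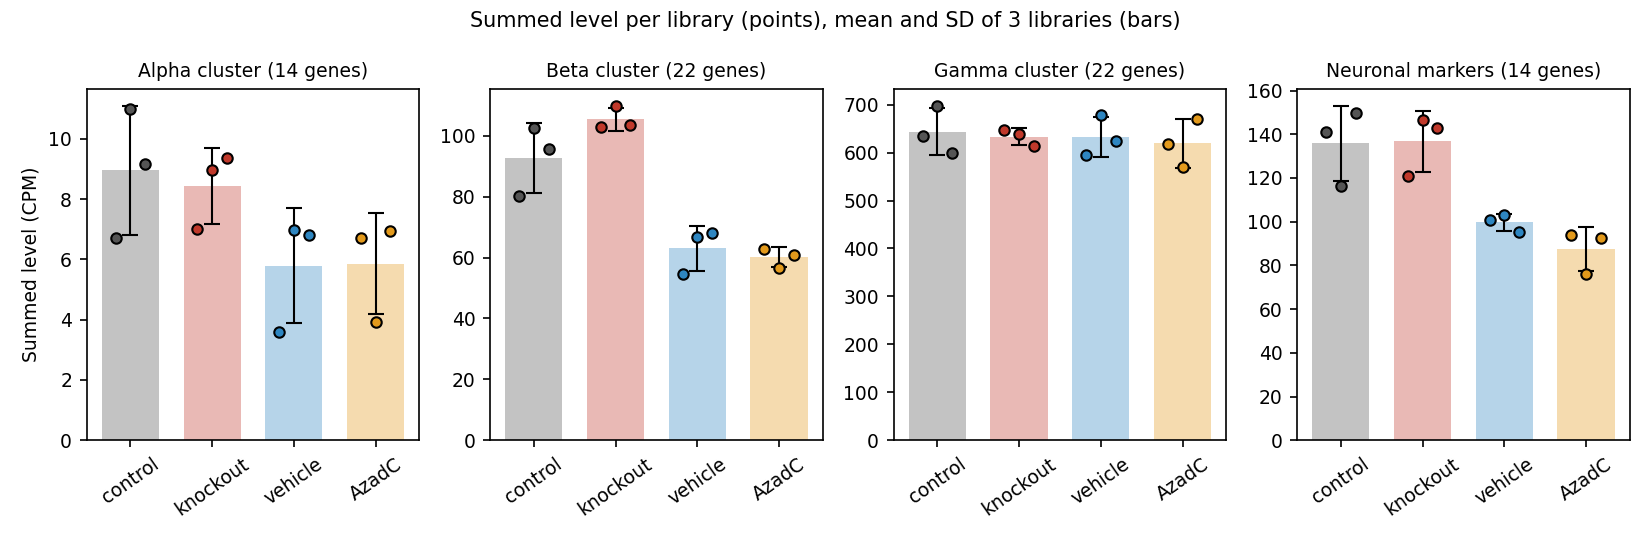
Summed level in CPM of the alpha, beta and gamma clusters and of the neuronal markers in each library (points), with the mean and SD of the 3 libraries of each group (bars). The gamma sums overlap between all 4 groups. In this unit every untreated library lies above every vehicle and AzadC library for the beta cluster and the neuronal markers.

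Among the single members, the C-type isoforms spanned the widest range of levels. Pcdhgc3, the gamma isoform known for its part in Wnt signalling and dendrite growth, was the most abundant member by read count, at 213, 235 and 203 CPM in control, 203, 178 and 151 in knockout, 187, 233 and 203 in vehicle and 200, 187 and 219 in AzadC. Its change in the knockout was -0.29 ± 0.11 on the log2 scale against control, which did not pass (edgeR adjusted p = 0.0912). All 3 knockout libraries stood below the lowest control library, the nearest by a small margin.

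Pcdhgc4, the gamma isoform known to be needed for neuron survival, read 162, 163 and 139 CPM in control, 142, 144 and 159 in knockout, 147, 161 and 164 in vehicle and 161, 144 and 173 in AzadC. Its high value is uncertain. The deposited average transcript length for Pcdhgc4 was 2316 to 2365 bases in the 12 libraries, near the 2272 bases of a short annotated transcript and far below the 5024 bases of the full one. That short form has only 153 bases of its own first exon joined to the 2119 bases of the shared exons, and 6.8% of its 50-base stretches are unique. For Pcdhgc3 the deposited length was 4661 to 4685 bases, close to its full 4687 bases. The TPM of Pcdhgc4, with a mean of 115 over the 12 libraries against 70.8 for Pcdhgc3, therefore rests mostly on shared exon reads and gives no order between these isoforms. Without Pcdhgc4 the gamma sum was 489 ± 39.7 CPM in control, 485 ± 27.2 in knockout, 475 ± 37.1 in vehicle and 460 ± 36.5 in AzadC.

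The other C-type isoforms were low. Pcdhgc5 read 3.73, 4.86 and 5.36 CPM in control, 6.53, 6.45 and 4.27 in knockout, 4.58, 4.76 and 3.06 in vehicle and 3.39, 3.94 and 3.91 in AzadC. Pcdhac2, the most abundant alpha member, read 3.19, 5.71 and 5.53 CPM in control, 1.64, 4.77 and 3.79 in knockout, 0.99, 3.15 and 3.67 in vehicle and 3.70, 1.88 and 3.24 in AzadC. Pcdhac1 read at most 0.742 CPM, in control library 3, and 0 in control library 1, knockout library 1, vehicle library 1 and AzadC library 2. None of the 4 C-type isoforms tested passed in any comparison, and their libraries overlapped between knockout and control except for Pcdhgc3.

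Every gamma A and gamma B member was expressed in all 12 libraries, with group means from 3.50 CPM (Pcdhgb8 in AzadC) to 33.6 CPM (Pcdhgb6 in vehicle). Pcdhgb6 was the highest of them by length-corrected level, with a mean of 10.7 TPM. Summed over the 12 A members, the level was 172 ± 13.2 CPM in control, 200 ± 4.46 in knockout, 164 ± 7.53 in vehicle and 162 ± 11.6 in AzadC. The knockout libraries, at 195 to 203 CPM, stood above all 9 others, the highest of which was 186 CPM. The 7 B members together overlapped, at 95.2 ± 10.99 CPM in control, 102 ± 5.07 in knockout, 99.0 ± 6.62 in vehicle and 92.7 ± 9.003 in AzadC.

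**Figure D2:**
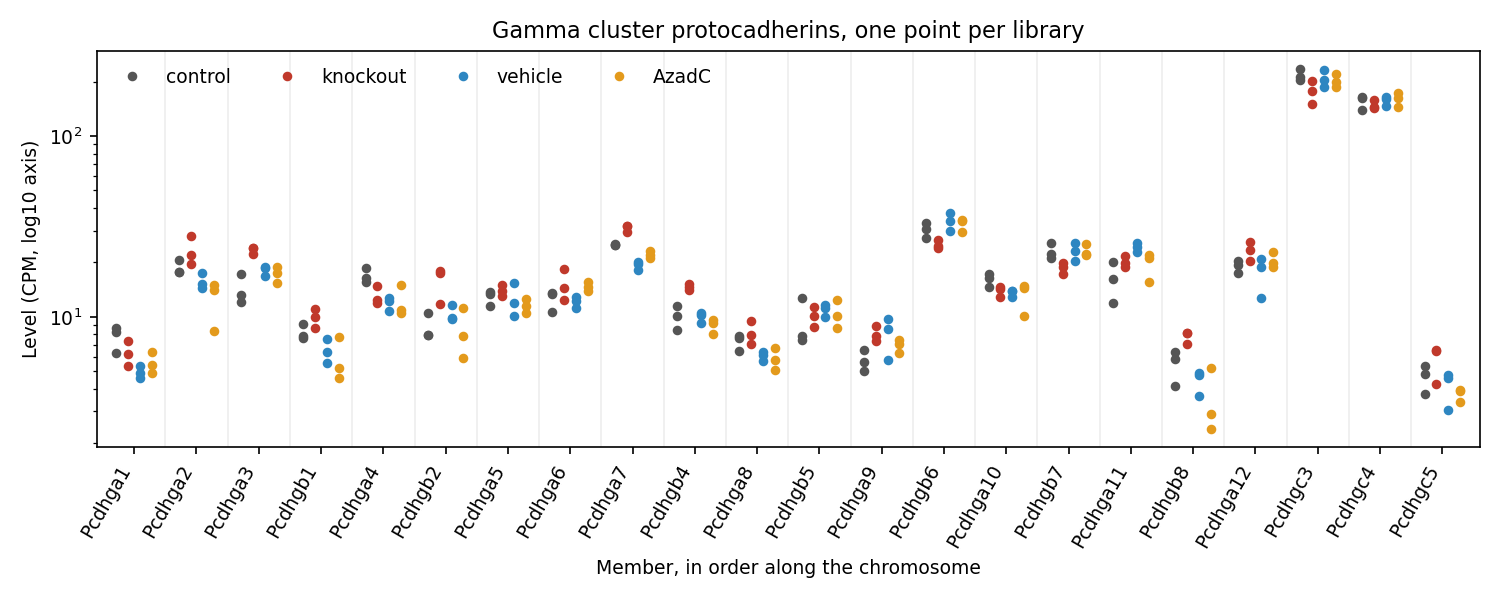
Level in CPM (log10 axis) of the 22 gamma members in order along the chromosome, with a point for each library in the control, knockout, vehicle and AzadC groups. Pcdhgc3 and Pcdhgc4 lie near 200 and 155 CPM, and the A and B members between about 2 and 40 CPM.

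The beta cluster was expressed along nearly its whole length, at lower levels. Pcdhb22, the last gene of the array, had the highest length-corrected mean (3.48 TPM), followed by Pcdhb7 (2.97 TPM) and Pcdhb8 (2.63 TPM). Pcdhb22 read 10.8, 13.8 and 12.1 CPM in control, 12.3, 13.9 and 14.3 in knockout, 8.60, 10.4 and 8.31 in vehicle and 6.78, 8.60 and 9.28 in AzadC. At the other end, Pcdhb1 gave 2 counts in all 12 libraries together. Among the alpha genes only Pcdha4, Pcdha5, Pcdha9, Pcdha10 and Pcdhac2 were tested. None had a group mean above 1.2 CPM apart from Pcdhac2, and only 2.5% of the 50-base stretches of Pcdha4 were unique.

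**Figure D3:**
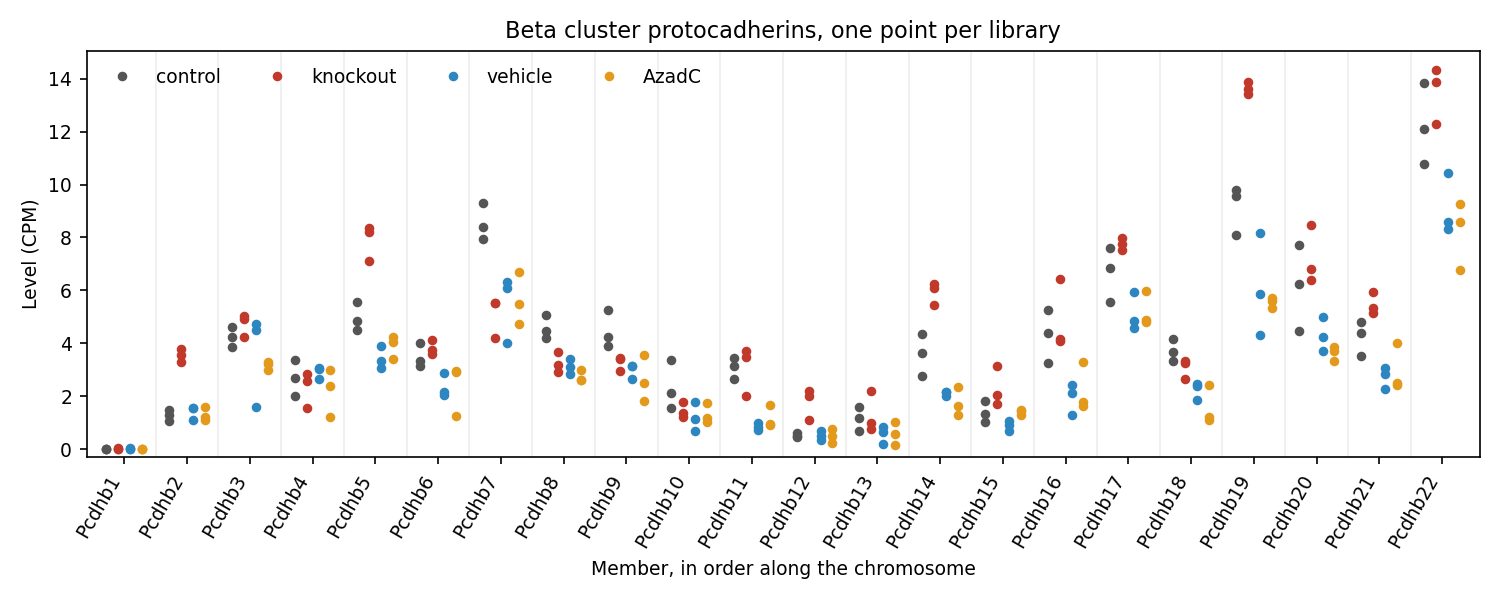
Level in CPM of the 22 beta members in order along the chromosome, with a point for each library in the control, knockout, vehicle and AzadC groups. Knockout libraries stand above all others for Pcdhb2, Pcdhb5, Pcdhb12, Pcdhb14, Pcdhb19 and Pcdhb21. For 9 members (Pcdhb5 to Pcdhb9, Pcdhb11, Pcdhb14, Pcdhb18 and Pcdhb22) every vehicle and AzadC point lies below every control point. The share of all genes with either pattern was not computed. For knockout against control alone, 28.6% of the 21 tested beta members stood wholly higher, against 16.9% of all genes tested. For vehicle against control alone, 52.4% of them stood wholly lower, against 11.5% of all genes tested.

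The comparison of knockout with control asked which protocadherins change when the maintenance methyltransferase is lost. A minority did, and most of those rose: 7 of the 48 tested members were higher in the knockout and 1 was lower, or 16.7% (edgeR quasi-likelihood test, p adjusted over all tested genes by Benjamini-Hochberg, threshold 0.05). Of all genes tested, 14.3% passed in this comparison, 7.83% higher and 6.43% lower, so the members' share lay near the background. The median change over the 48 members was 0.19 on the log2 scale, against 0.00 over all genes, and 33 of 48 lay above 0. By cluster, 3 of 21 beta members were higher and 1 lower, 4 of 22 gamma members were higher and none lower, and none of the 5 alpha members passed.

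In the beta cluster the largest changes were in weakly expressed genes. Pcdhb2, a single-exon gene at 37294812 to 37297624, read 1.07, 1.302 and 1.48 CPM in control and 3.29, 3.54 and 3.79 CPM in knockout. Every knockout library was more than double the highest of the other 9 libraries, which ranged from 1.07 to 1.58 CPM. The change was 1.47 ± 0.26 on the log2 scale, or 2.76-fold (adjusted p = 0.00248). The deposited TPM, which also follows the lengths of its 2 annotated transcripts, went from a mean of 1.05 to 2.10.

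Pcdhb12 read 0.507, 0.613 and 0.456 CPM in control and 1.10, 2.02 and 2.19 CPM in knockout. The groups did not overlap, although all levels were low, and the change was 1.73 ± 0.44, or 3.31-fold (adjusted p = 0.0193). Pcdhb5 read 4.50, 5.55 and 4.85 CPM in control and 8.36, 8.22 and 7.11 CPM in knockout, a change of 0.67 ± 0.18, or 1.59-fold (adjusted p = 0.0221). Its knockout libraries were the highest of all 12. Pcdhb7 went the other way, from 7.93, 9.31 and 8.39 CPM in control to 5.53, 4.18 and 5.51 CPM in knockout, and fell by 0.75 ± 0.21 on the log2 scale (adjusted p = 0.0279). For Pcdhb7 the control libraries were the exception, since the 3 vehicle libraries, at 4.02, 6.33 and 6.09 CPM, overlapped those of the knockout.

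In the gamma cluster the 4 members that rose all lie among the first 10 genes of the array. Pcdhga3 read 13.2, 17.4 and 12.1 CPM in control and 22.3, 24.1 and 24.1 CPM in knockout, a change of 0.72 ± 0.13, or 1.65-fold (adjusted p = 0.00275). Pcdhgb2 read 7.93, 10.5 and 7.93 CPM in control and 17.6, 18.01 and 11.8 CPM in knockout, a change of 0.85 ± 0.22 (adjusted p = 0.0232). The knockout libraries of Pcdhga3 agreed closely, whereas those of Pcdhgb2 were spread. Pcdhgb4 read 10.1, 11.5 and 8.50 CPM in control and 15.2, 14.6 and 14.1 CPM in knockout, a change of 0.54 ± 0.14 (adjusted p = 0.0177). Pcdhga7 read 24.8, 24.8 and 25.4 CPM in control and 29.6, 31.8 and 31.7 CPM in knockout, a change of 0.31 ± 0.08 (adjusted p = 0.0192). For all 4 genes every knockout library exceeded every control library.

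The number of calls fell in each fit that left out 1 library. Calls over all genes fell too, from 2473 to between 1360 (without knockout replicate 2) and 2196 (without control replicate 1). Without knockout replicate 2 only 2 members passed, without control replicate 1 or control replicate 3 there were 4, and without control replicate 2 or knockout replicate 1 there were 5. Pcdhb2 and Pcdhga3 passed in each of the 12 other settings tried, while each of the other 6 lost its call in at least 3.

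Markers of cell types moved between the same groups, in a comparison where 14.3% of all genes tested passed. Of the 12 palatal mesenchyme markers, 4 were lower in knockout against control and none higher: Twist1 by -0.76 ± 0.14, Meox2 by -0.98 ± 0.19, Pdgfra by -0.50 ± 0.09 and Prrx2 by -0.35 ± 0.11. Twist1 stood at 177 ± 24.4 CPM in control and 105 ± 13.1 in knockout. The summed lists overlapped in CPM (1426 to 1893 in knockout, 1824 to 2374 in control). In TPM they did not, at 916 to 1167 in knockout and 1257 to 1535 in control. All 11 macrophage markers were higher, with sums of 318 to 357 CPM in knockout and 70.9 to 98.4 in control. Of 10 muscle markers 8 were higher, with sums of 135 to 734 and 7.02 to 80.9 CPM. Summed endothelial markers were lower without overlap, at 323 to 401 CPM in knockout and 418 to 426 in control, and 1 of 7 passed (Cldn5, lower). The neuronal, glial, epithelial and blood sums overlapped. The part of these cell types in the members' changes was not tested.

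The calls were also laid out along the arrays. Among the tested beta genes, 2 of the 9 up to Pcdhb10 were higher and 1 lower, and 1 of the 12 from Pcdhb11 on was higher. In the gamma A and B genes 4 of the first 10 were higher, and none of the other 9. That cut falls just after Pcdhgb4, the last gene called, so the split depends on where it is set. The median changes before and after it were 0.29 and 0.17. Across genes, which share the libraries and are not independent replicates, the change in the knockout had a Pearson correlation of 0.04 (Spearman 0.19) with the order in the beta array (n = 21) and of -0.07 (Spearman -0.01) in the gamma A and B array (n = 19). Its correlation with the CpG density of the first exon, which in beta is the whole transcript, was 0.20 (Spearman 0.13) in beta and 0.00 (Spearman 0.05) in gamma.

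The vehicle group gave a second wild-type reference, in which most beta members had lower values than in control. Against control, 2 of 48 members passed in vehicle, both lower, or 4.17% against 3.52% of all genes (1.46% higher and 2.06% lower). They were Pcdhb11, which fell by 1.81 ± 0.32 (adjusted p = 0.0114), and Pcdhga7, which fell by 0.38 ± 0.08 (adjusted p = 0.0242). Without vehicle replicate 1 or vehicle replicate 3 neither passed, and without control replicate 3 there was 1 call. The beta members were mostly lower in vehicle: 19 of 21 lay below 0, with a median of -0.57 against 0.00 over all genes. At an unadjusted p below 0.05, 14 of the 21 were lower and none higher, where 10.2% of all genes were lower and 8.91% higher. The vehicle libraries lay wholly below the control libraries for 11 of the 21 beta members, or 52.4%, against 11.5% of all genes tested.

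Pcdhb11 shows the difference most clearly, and was singled out after its values were seen. It read 2.65, 3.45 and 3.14 CPM in control, 3.70, 3.49 and 2.01 in knockout, 0.742, 0.996 and 0.847 in vehicle and 1.65, 0.969 and 0.902 in AzadC. All libraries of the untreated groups stood above all libraries of the vehicle and AzadC groups. The neuronal markers that passed in vehicle against control were Nefl and Nefm, neurofilament subunits that were lower by -1.70 and -0.77 on the log2 scale, and Stmn2, a tubulin-binding protein of growing axons that was higher by 1.20. Their part in the beta values was not tested.

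Set against vehicle, the same knockout libraries gave more calls. Of 48 members 14 were higher and 1 lower, or 31.2%, against 10.8% of all genes tested (6.70% higher and 4.13% lower). The beta cluster held 12 of them, all higher, of 21 tested, with a median change of 0.73. Without knockout replicate 2 the count over all members was 7, and without vehicle replicate 1 or vehicle replicate 2 it was 9. For the beta cluster alone it was 5 without knockout replicate 2 and 7 without vehicle replicate 1 or vehicle replicate 3. Tubb3, Nefl and Map2 were the 3 of 13 neuronal markers higher in this comparison, by 0.85, 0.90 and 0.39. All 11 macrophage markers were also higher, with a median of 1.81 and sums of 318 to 357 CPM against 84.2 to 112 in vehicle. The summed Schwann and glial markers did not overlap in CPM, at 146 to 179 in knockout and 92.7 to 130 in vehicle, with 1 of 9 higher (Cdh19). In TPM these sums overlapped, at 67.4 to 81.7 in knockout and 43.7 to 78.2 in vehicle. The part of these cell types was not tested.

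The beta genes that passed against vehicle were Pcdhb2, Pcdhb5, Pcdhb11, Pcdhb12, Pcdhb14, Pcdhb15, Pcdhb16, Pcdhb17, Pcdhb19, Pcdhb20, Pcdhb21 and Pcdhb22. Their changes ran from 0.56 ± 0.16 for Pcdhb22 to 1.82 ± 0.32 for Pcdhb11. Pcdhb14 read 6.08, 6.25 and 5.45 CPM in knockout against 2.17, 2.02 and 2.18 in vehicle, a change of 1.48 ± 0.25 (adjusted p = 0.00175). Control lay between them for this gene, at 2.77, 3.64 and 4.34 CPM, and the change against control did not pass (0.73 ± 0.24, adjusted p = 0.0571). Pcdhb19 read 13.4, 13.9 and 13.6 CPM in knockout, 4.33, 5.88 and 8.19 in vehicle and 8.08, 9.81 and 9.58 in control, so that control and vehicle overlapped. Its change was 1.14 ± 0.19 against vehicle (adjusted p = 0.00178) and 0.58 ± 0.19 against control (adjusted p = 0.0565). For both genes the knockout libraries were the highest of the 12, and both were singled out after their values were seen.

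In the gamma cluster Pcdhga7 was higher against vehicle by 0.69 ± 0.08 (adjusted p = 0.000106) and Pcdhgb4 by 0.55 ± 0.14 (adjusted p = 0.0191), and Pcdhgb6 was lower by -0.43 ± 0.11 (adjusted p = 0.0201). Pcdhgb6 read 24.5, 26.7 and 23.9 CPM in knockout, 33.7, 37.5 and 29.7 in vehicle and 27.4, 33.0 and 30.5 in control. Its knockout libraries were the lowest 3 of the 12. Pcdhga3 and Pcdhgb2, which passed against control, did not pass against vehicle, at 0.37 ± 0.13 (adjusted p = 0.0902) and 0.60 ± 0.22 (adjusted p = 0.108). The 5 members that were higher against each reference, in comparisons that share the knockout libraries, were Pcdhb2, Pcdhb5, Pcdhb12, Pcdhga7 and Pcdhgb4. Of all genes tested, 7.83% were higher against control and 6.70% against vehicle. The share higher against each reference was not computed, so the 5 members have no background to be set against.

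**Figure D4:**
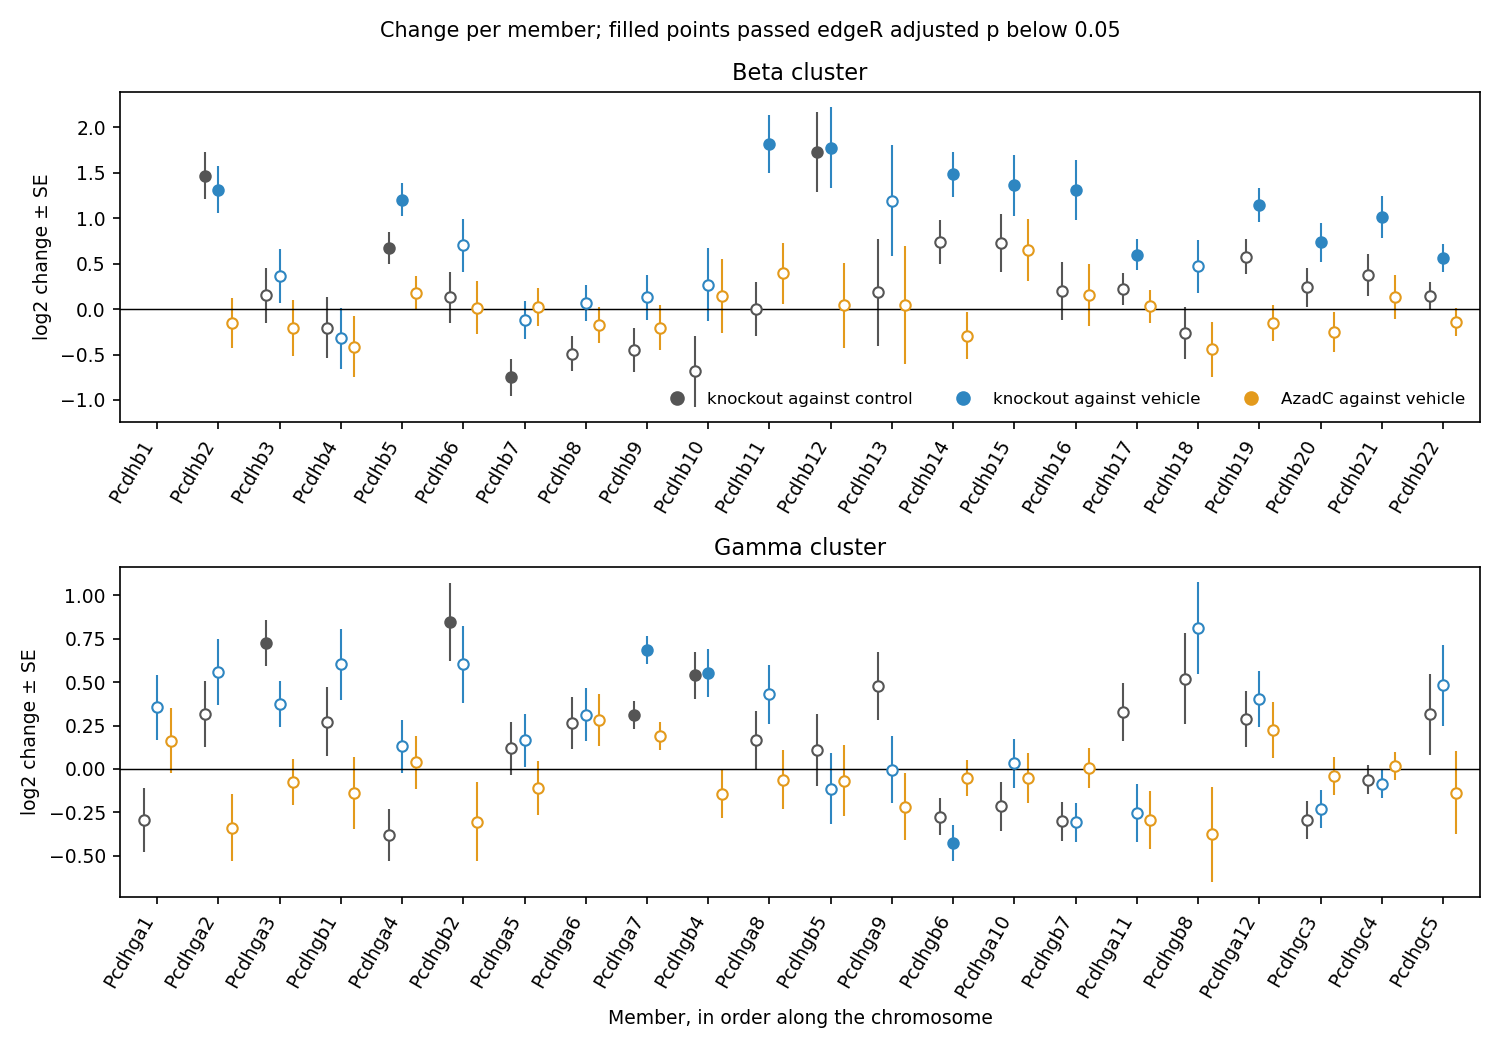
Change on the log2 scale ± SE of each tested beta and gamma member, in order along the chromosome, for knockout against control, knockout against vehicle and AzadC against vehicle. Filled points passed the edgeR test: 4 beta and 4 gamma members against control, 12 beta and 3 gamma members against vehicle, and none for AzadC.

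The inhibitor was compared with its vehicle to ask whether it changes the same genes. No member passed in edgeR or in DESeq2, where 2 of all genes tested passed in edgeR (0.0115%, or 0.00577% in each direction) and 82 in DESeq2. At an unadjusted p below 0.05, 1 member was higher in edgeR, Pcdhga7, and none was lower; DESeq2 had none in either direction. Of all genes tested, 3.89% were higher and 2.49% lower in edgeR at that level, so 1 member of 48 was no more than the background. Pcdhga7 read 23.2, 21.9 and 21.0 CPM in AzadC and 18.1, 19.7 and 20.003 in vehicle, a change of 0.19 ± 0.08 (adjusted p = 0.772). The median over the 48 members was -0.06, and the beta members were split, with 11 above and 10 below 0. For 36 of the 48 members, including all 22 gamma and 14 of 21 beta members, the 95% interval of the change lay between -1 and 1 on the log2 scale. None of the 5 alpha members was measured that well. Beside this, summed macrophage markers were higher in AzadC, at 133 to 151 CPM against 84.2 to 112 in vehicle, with 9 of 11 higher at an unadjusted p below 0.05 and none after adjustment.

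The knockout and AzadC effects were then compared directly, as the difference between the 2 changes. It passed for 2 of 48 members, or 4.17%, against 4.40% of all genes tested (2.20% in each direction). For Pcdhb2 the AzadC libraries read 1.58, 1.09 and 1.20 CPM and the vehicle libraries 1.11, 1.54 and 1.57, and the 2 effects differed by 1.62 ± 0.38 (adjusted p = 0.0301). For Pcdhga3 the AzadC libraries read 17.6, 15.3 and 18.8 CPM and the vehicle libraries 16.9, 18.7 and 18.8, and the effects differed by 0.80 ± 0.19 (adjusted p = 0.0302). In both genes the AzadC and vehicle libraries overlapped. Neither difference passed without AzadC replicate 2, control replicate 1, knockout replicate 2, vehicle replicate 2 or vehicle replicate 3. Only 1 of them passed without AzadC replicate 1, control replicate 2, control replicate 3, knockout replicate 1, knockout replicate 3 or vehicle replicate 1. For the other 46 members the knockout and AzadC effects were not shown to differ.

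Of the 27 other annotated genes inside or beside the arrays 6 were tested, and 2 noncoding RNAs passed in knockout against control, 3222401L13Rik and Gm26672. Of all genes tested, 14.3% passed in this comparison. Both RNAs were singled out after their values were seen. The gene 3222401L13Rik is annotated as a lincRNA on the plus strand at 37655451 to 37661742, just upstream of Pcdhga1. It read 3.31, 3.95 and 3.02 CPM in control, 10.7, 12.3 and 8.95 in knockout, 4.58, 3.25 and 2.94 in vehicle and 3.94, 2.67 and 3.57 in AzadC. The knockout libraries were the highest 3 of 12. It was higher by 1.63 ± 0.22 against control (adjusted p = 0.000345) and by 1.58 ± 0.22 against vehicle (adjusted p = 0.000488), and it passed in every setting tried. Gm26672, on the minus strand inside the gamma array at 37746559 to 37768242, was higher by 1.10 ± 0.32 against control (adjusted p = 0.0351) and did not pass against vehicle (0.79 ± 0.32, adjusted p = 0.135). Without a stated strand setting its reads cannot be told apart from those of the gamma genes it lies across. Taf7, a general transcription factor subunit encoded between the beta and gamma arrays, read 27.6 to 34.5 CPM in the 6 untreated libraries, with a change of -0.04 ± 0.09 in the knockout.

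Genes known to act on the clusters changed in RNA level by between -0.52 and 0.36 on the log2 scale in knockout against control. Of these 28 chromatin and loop regulators, 3 were higher and 3 lower in that comparison, or 21.4%, against 14.3% of all genes tested. The share counts Dnmt1, the gene targeted in the knockout. The higher ones were Rad21, a subunit of the cohesin ring (0.25 ± 0.07, adjusted p = 0.0325), Trim28, a corepressor (0.23 ± 0.07, adjusted p = 0.0307), and Uhrf1, which brings Dnmt1 to newly replicated DNA (0.35 ± 0.08, adjusted p = 0.0134). The lower ones were Dnmt1 itself, Rest, a repressor of neuronal genes (-0.19 ± 0.06, adjusted p = 0.0412), and Tet2, which oxidises methylated cytosine (-0.33 ± 0.07, adjusted p = 0.00971). Ctcf read 154, 146 and 162 CPM in control and 159, 159 and 153 in knockout, a change of 0.03 ± 0.07 (adjusted p = 0.827). The changes of Smchd1 (0.14 ± 0.08), Setdb1 (0.04 ± 0.06) and Dnmt3b (0.36 ± 0.12, adjusted p = 0.0550) did not pass either. None of the 28 passed for AzadC against vehicle. In vehicle against control 4 of the 28 were higher and none lower, or 14.3%, against 3.52% of all genes tested.

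Of 26 genes whose proteins bind, cut or signal from the clustered protocadherins, 2 were higher and 2 lower in knockout against control. Their share of 15.4% lay near the 14.3% of all genes tested. Ptk2b, a tyrosine kinase that binds the shared cytoplasmic domain, read 1.88, 0.690 and 0.628 CPM in control and 4.25, 5.07 and 3.73 in knockout, a change of 1.98 ± 0.39 (adjusted p = 0.00485). Abi2, of the WAVE complex that drives actin branching, was higher by 0.32 ± 0.09 (adjusted p = 0.0266). Lrp5, a Wnt co-receptor, was lower by -0.32 ± 0.08 (adjusted p = 0.0192), and Nlgn1, a synaptic adhesion protein, by -1.34 ± 0.30 (adjusted p = 0.0105). The macrophage and muscle markers, given above, rose in the same comparison, and their part in these 4 genes was not tested.

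Of the 10 non-clustered delta protocadherins, related genes outside the arrays, none was higher in knockout against control and 4 were lower: Pcdh9 (-1.83 ± 0.26, adjusted p = 0.000491), Pcdh11x (-1.67 ± 0.27, adjusted p = 0.00134), Pcdh17 (-0.67 ± 0.21, adjusted p = 0.0460) and Pcdh18 (-0.42 ± 0.10, adjusted p = 0.0130). These 4 were 40% of the list, where 6.43% of all genes tested were lower. Pcdh9 read 14.9, 23.6 and 19.6 CPM in control and 6.21, 5.86 and 4.15 in knockout. The median of these 10 genes against control was -0.54, against 0.19 for the 48 clustered members tested, a difference that was not tested. With vehicle as the reference, 1 of the 10 was higher in knockout and 3 were lower. Of all genes tested, 6.70% were higher and 4.13% lower in that comparison. The median of the 10 genes there was -0.03, against 0.46 for the 48 members. In vehicle against control their median was -0.41.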

How the data were processed

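The authors deposited, per the file headers, expected counts, TPM and FPKM per gene for each of the 12 libraries. Per the submitters' processing notes these came from STAR 2.7.0 and RSEM 1.3.1 on mm10, with FastQC, Trim Galore and DESeq2 also named. Library preparation used a NuGen mRNA kit according to the labels. The deposited expected counts were rounded and analysed with edgeR 4.0.16 in R 4.3.3 (filterByExpr by group, TMM, factors 0.985 to 1.01, 1 mean per group over all 12 libraries, glmQLFTest, Benjamini-Hochberg over 17335 genes, threshold 0.05). SEs were derived from the log2 change and its F statistic. TPM values are the authors' own and serve for levels between genes; the deposited FPKM values were not used. Replicate pairs of a group differed by more than sampling noise (chi-square per degree of freedom 6.92 to 21.5). The labels do not tie same-numbered libraries to a shared litter or day, so the fit has no replicate block. The p-values measure the spread between libraries of pooled embryos.

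Gene models are GENCODE M21, matched by gene ID; no source used here names the release behind the files. The members and gene lists were chosen with earlier results of these data known. Values in every library were given, by rule, for the C-type isoforms, the top member of each cluster by TPM and the members called in knockout against control or in the difference of effects (up to 5 a cluster). The rule further names 6 regulators, list genes called in knockout against control, and the top 2 markers of a list. Alternatives were DESeq2 1.42.0, RLE scaling, other filters, fewer groups in the fit, a replicate block and leaving out each library. The edgeR steps were tested on simulated data.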

Additional observations from a re-analysis of the deposited data

Results flagged for a closer look

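For 3 genes of the region, the effect of the knockout against control and the effect of AzadC against vehicle differed by the edgeR test of that difference. They were Pcdhb2 (1.62 on the log2 scale, adjusted p = 0.0301), Pcdhga3 (0.80, adjusted p = 0.0302) and the noncoding RNA 3222401L13Rik (1.70, adjusted p = 0.0101). In each, all 3 knockout libraries lay above all 3 control libraries, and the AzadC and vehicle libraries overlapped. The difference for 3222401L13Rik passed in all 17 other settings tried, that for Pcdhga3 in 8 and that for Pcdhb2 in 6.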

How the results depend on the processing

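No called change reversed its direction in any setting tried. DESeq2 called 5 beta members higher in knockout against control. In vehicle against control it called 6 members, with 2 beta and 3 gamma members lower. It called 5 gamma members higher in knockout against vehicle and 4 members in the difference of effects. With no filter on low counts, vehicle against control had 2 beta and 0 gamma members lower, and knockout against vehicle had 5 gamma members higher. With only the groups compared in the fit, vehicle against control had 1 member and 0 in gamma, and knockout against vehicle had 5 gamma members higher. The beta sum exceeded control in the knockout by a log2 ratio of 0.18 in CPM and 0.0355 in TPM. Over all groups, correlations between the deviations of same-numbered libraries ran from -0.18 to 0.28. For control with knockout they were 0.08 to 0.28, against -0.30 to 0.08 for different numbers, and all 6 libraries correlated best with their own number, a hint from the data and not the design. With the replicate block 8 members passed in knockout against control, as without it. With that block the difference of effects passed for 1 member, and no count of calls led with in the other comparisons moved by more than 1.5 times.

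Leaving out 1 library at a time gave 2 to 6 members in knockout against control (beta higher 1 to 2, gamma higher 1 to 3), and 0 to 3 in vehicle against control (beta lower 0 to 1, gamma lower 0 to 2). It gave 7 to 11 in knockout against vehicle (beta higher 5 to 10, gamma higher 1 to 2) and 0 to 2 in the difference of effects. For AzadC against vehicle the count was 0 in all 12 settings. Of the members called, 2 of 8 in knockout against control and 6 of 15 in knockout against vehicle passed in every setting. Low counts limit the alpha members most: 9 of 14 were not tested, and the median SE of the other 5 for AzadC against vehicle was 0.88 on the log2 scale.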
